A study of Mus musculus with 6 samples.

Results

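The autophagy machinery is described here through 40 genes, from the initiating kinase gene Ulk1 to the LC3 genes, their cargo receptors and the transcription factors Tfeb and Tfe3. They were chosen by gene symbol and by role, with earlier results of these data known. All 40 were found among the 54532 gene identifiers of the count table. Messenger RNA was sequenced from whole epididymal fat pads of mice that had eaten a high-fat diet for 16 weeks. In the knockout group (3 libraries) floxed PD-1 alleles, PD-1fl/fl, were combined with Lyz2-Cre, where the Lyz2 gene drives Cre in myeloid cells, so that T cells, the best known PD-1 carriers, are not targeted. The control group (3 libraries) consisted of littermates that carry the same floxed alleles (PD-1fl/fl) and ate the same diet. The labels do not give age or strain background, nor do they say whether each library came from its own animal. The p-values therefore cover the spread among these libraries, part of which may be technical.

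Autophagy delivers cytoplasm and organelles to the lysosome in a double-membrane vesicle. The ULK1 kinase complex starts the process, a class III phosphatidylinositol 3-kinase complex marks the growing membrane with PI3P, and ATG9 and ATG2 supply lipid. A pair of ubiquitin-like conjugation reactions then attaches proteins of the ATG8 family (LC3 and GABARAP) to the membrane, where cargo receptors bind them. In fat, autophagy is known for its part in adipocyte differentiation and in the turnover of mitochondria, and the study's title speaks of phosphorylation of PD-1 that depends on ULK1. Much of this control acts on proteins, by phosphorylation and lipidation, which mRNA counts do not measure.

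Libraries held 22813206 to 25441746 counts in the knockout group and 20108185 to 27225533 in the control group, and the 40 genes took 0.341% to 0.399% and 0.253% to 0.439% of them. Pdcd1, the targeted gene, had 19, 19 and 5 counts in knockout libraries and 13, 0 and 0 in controls, levels too low to check the labels. Control library 2 had a liver profile: Alb (albumin) stood at 148656 CPM (counts scaled to the TMM-adjusted library size) and the fat hormone gene Adipoq at 11.2 CPM. In the 5 other libraries Adipoq stood at 817 to 3649 CPM and Alb at 4.02 to 3879 CPM, the highest in control library 3. The 10 hepatocyte markers summed to 125, 1322 and 2079 CPM in knockouts and to 8101, 226311 and 8240 CPM in controls. Cyp2e1 alone gave 8089 CPM of the sum in control 1 and 1991 CPM in knockout 3, where Alb was at 7.38 and 57.6 CPM. Each result is therefore given with all 6 libraries and without control library 2. Macrophage markers differed between libraries too. The 12 fixed markers, all above 0 in each library, summed to 3374.5, 4250.05 and 902 CPM in knockout libraries 1 to 3, against 810, 316 and 821 CPM in controls 1 to 3. The 10 adipocyte markers, also all above 0, summed to 18683, 13651 and 40608 CPM in knockout libraries and 57259, 4538 and 25332 CPM in controls. Pck1 alone gave 3841 CPM of the sum in control 2, where Plin1 was at 13.3 CPM. The 4 markers of epididymis and male tract epithelium summed to 2.84, 3.54 and 1.47 CPM in knockouts. In controls they summed to 39.8, 2.95 and 7.52 CPM, so control 1 was highest. Of these, Defb2, Lcn8 and Rnase10 were each at 0 in 1 or more libraries. The part of such tissue in the members' levels was not tested. In bulk tissue, fewer cells of a type and less RNA per cell cannot be told apart.

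Most fold changes of the machinery between knockout and control fat were small. Tfeb, the transcription factor gene, was higher in each knockout library than in each control, and Gabarapl1, an ATG8 family gene, was lower in each. No member passed edgeR's quasi-likelihood test (0 of 40 at an adjusted p of 0.05), nor did any gene (0 of 15928 tested, percent called 0%, smallest adjusted p 0.560). Without control library 2 the test called 0 of 40 members and 0 of 16729 genes (0%, smallest edgeR adjusted p 0.540). At an unadjusted edgeR p under 0.05 stood 1 member higher (Tfeb) and 1 lower (Gabarapl1), against 4.38% and 4.27% of all genes (8.65% in either direction). Without control library 2 these were Tfeb again and Wipi1, against 5.46% higher and 3.5% lower among all genes (8.96% in either direction). DESeq2, an alternative test, called 1 member, Tfeb, in both settings, against 1.77% of genes called higher with all 6 libraries and 2.26% without control library 2. It called 525 genes with all 6 libraries, 3.37% of those it tested (1.6% lower), and 470 without control library 2, 2.98% (0.724% lower).

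The members' log2 fold changes, knockout over control, had a median of −0.22, with 8 above 0 and 32 below, beside a median of −0.03 over all genes tested. Without control library 2 the median was −0.10 (16 above, 24 below), beside −0.04 over all genes. Scaling by total counts alone turned this direction: it moved the median of all genes to 0.34 and that of the members to 0.23, with 30 members above 0. The members' median thus lay below that of all genes by 0.19 with TMM scaling and by 0.11 with total counts. Fold changes were small: 33 of 40 members lay within 0.5 on the log2 scale without control library 2, against 59.9% of all genes, and 29 of 40 with all 6, against 53.2%. The groups did not overlap for 4 members, 1 with each knockout above each control (Tfeb; 9.54% of all genes) and 3 with each knockout below (Gabarapl1, Nbr1 and Atg2b; 5.61% of all genes). With total counts alone the split was 3 above and 1 below, 10% of members against 17.1% of all genes. Without control library 2 this held for 8 members, 3 above (Tfeb, Atg5 and Atg16l2; 13.6% of all genes) and 5 below (Gabarapl1, Atg2b, Atg13, Atg9a and Wipi1; 11.9%). Both totals were under the share of all genes without overlap, 15.2% with 6 libraries and 25.5% without control library 2.

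**Figure D1:**
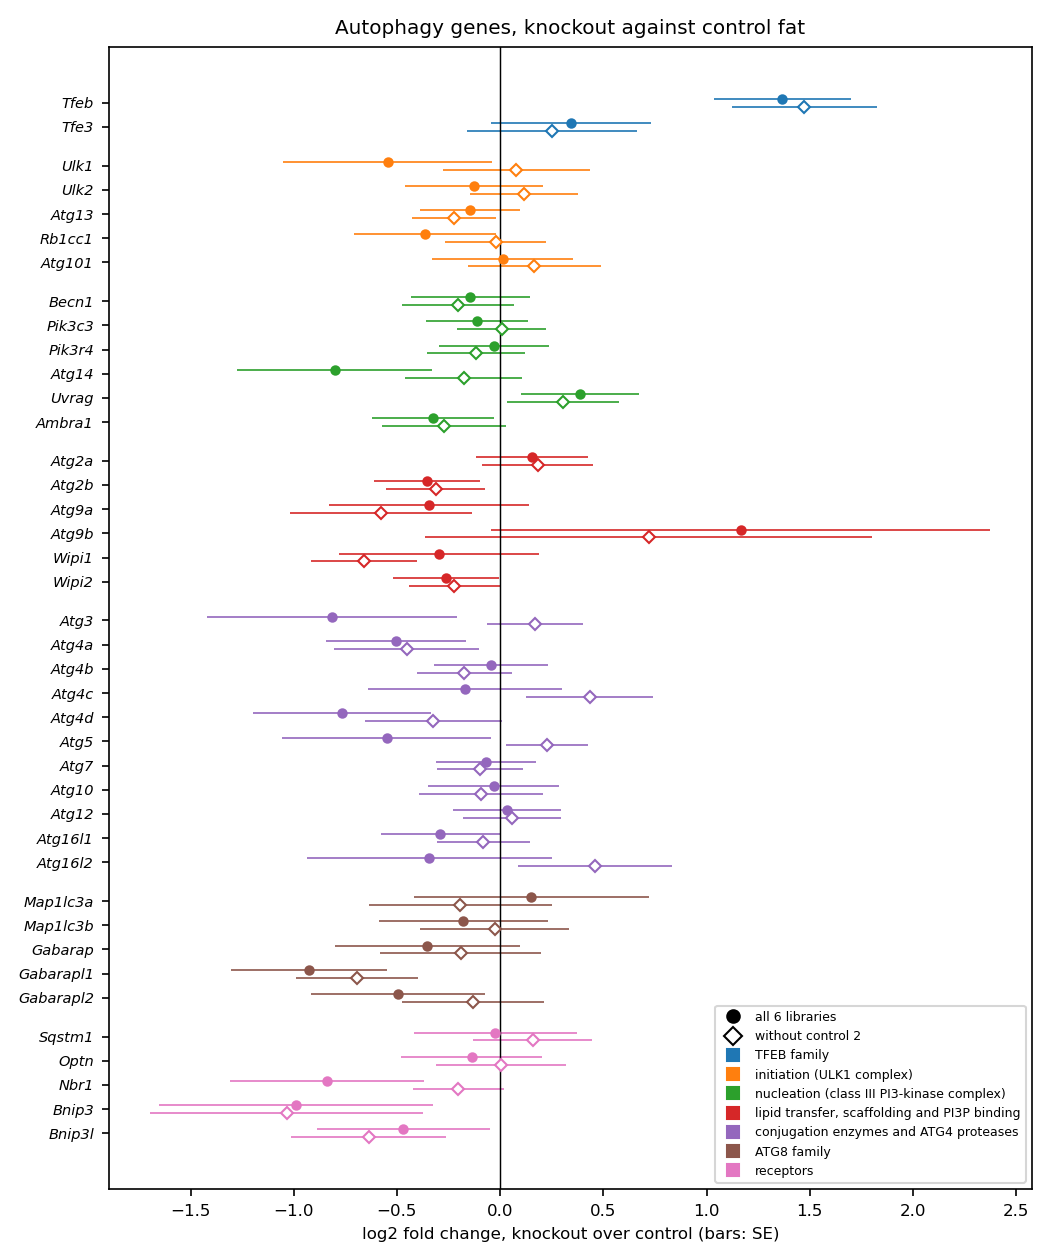
Log2 fold changes, knockout over control (x axis), of the 40 genes (y axis), coloured by role, from edgeR. Filled circles use all 6 libraries, hollow diamonds leave out control library 2, and bars are standard errors. Tfeb stands furthest to the right at 1.37 and 1.47, while most genes lie within 0.5 of 0.

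TFEB and TFE3 are related transcription factors that enter the nucleus when mTORC1 is inactive and switch on lysosome and autophagy genes. Tfeb (chromosome 17, 47737030 to 47792419, plus strand, mm10) had 27.9, 38.3 and 21.1 CPM in knockout libraries 1 to 3, against 9.29, 12.6 and 12.0 CPM in controls 1 to 3. The lowest knockout stood above the highest control, and knockout library 2 was highest. Its log2 fold change was 1.37 ± 0.33 (SE; edgeR adjusted p 0.560) and 1.47 ± 0.35 without control library 2 (edgeR adjusted p 0.540), so it did not pass. DESeq2 gave adjusted p-values of 0.0318 with all 6 libraries and 0.0132 without control library 2. Over 13 alternatives the log2 fold change ran between 1.13 and 1.81 and the adjusted p between 0.0132 and 1.00. Tfe3 had 44.2, 59.7 and 23.9 CPM in knockout libraries and 34.3, 28.1 and 38.2 CPM in controls. These groups overlap, since knockout library 3 held the lowest value of all.

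The Tfeb level ran with macrophage marker sums in part. Knockout libraries 1 and 2 were high in both, and Adgre1, the gene of the macrophage protein F4/80, had 268 and 379 CPM there. In knockout library 3 the marker sum, at 902 CPM, lay near the 810 and 821 CPM of controls 1 and 3, and Tfeb stood at 21.1 CPM against 9.29 and 12.0 CPM in those controls. The single markers differed: 8 of the 12 were higher in each knockout, library 3 included, than in each control (9.54% of all genes), and the rest overlapped. In knockout 3 Adgre1 had 49.3 CPM, against 28.9 and 33.5 CPM in controls 1 and 3. Mrc1 had 86.3 CPM there, against 112 and 107 CPM. Lyz2, the gene that drives Cre, gave 376 CPM of the sum in knockout 3. The 8 T cell markers summed to 32.6, 29.1 and 26.7 CPM in knockouts and 10.97, 7.33 and 11.8 CPM in controls, without overlap, and Cd8a was at 0 in control 2. The 7 fibroblast and progenitor markers summed to 2044, 4988 and 1227 CPM in knockouts and 910, 466 and 1420 CPM in controls, with knockout 3 among the controls. The part of macrophage, T cell or fibroblast content in the Tfeb difference was not tested. The ratio of Tfeb to Tfe3 counts, which does not depend on library scaling, was 0.633, 0.643 and 0.883 in knockout libraries and 0.271, 0.450 and 0.313 in controls. Each knockout lay above each control. The log2 ratio averaged −0.49 ± 0.27 in knockouts and −1.57 ± 0.38 in controls (SD, n = 3 each), a difference of 1.08 with an exact two-sided permutation p of 0.1. This is the smallest p that 3 against 3 libraries allow, and adjusted over the 6 ratios compared it was 0.3.

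**Figure D2:**
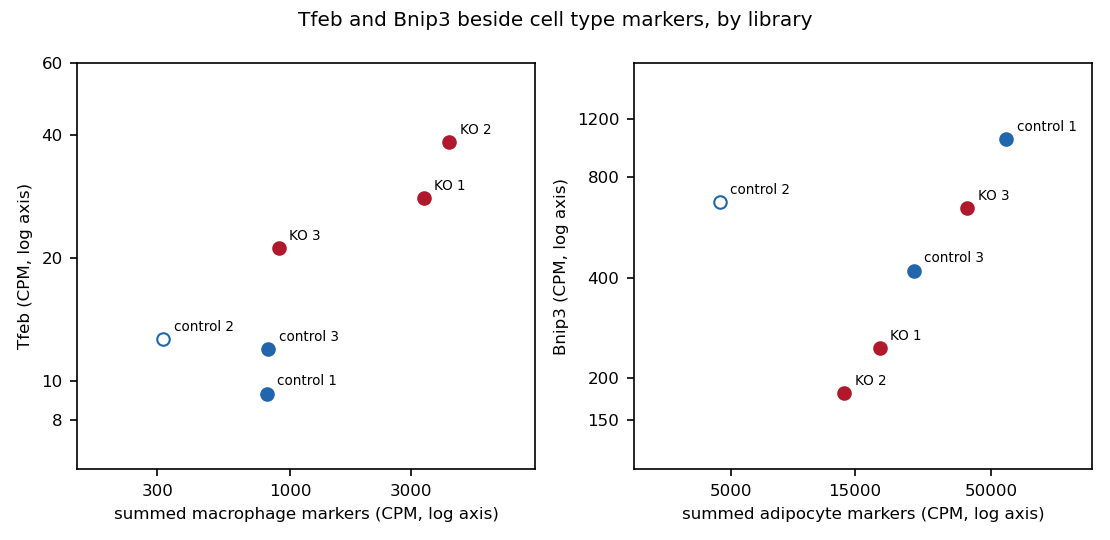
Levels of Tfeb (left) and Bnip3 (right) in CPM against summed markers of macrophages and of adipocytes in CPM, 1 point per library, all axes logarithmic. Red points are knockouts (KO), blue points controls, and the hollow point is control 2. Knockout 3 lies above controls 1 and 3 in Tfeb at a similar macrophage sum, and Bnip3 follows the adipocyte sum in the 5 filled points. For 8 of the 12 macrophage markers, each knockout stood above each control.

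TFEB binds E-box sequences with the core CACGTG, and its preferred form, known as the CLEAR element, contains TCACGTGA. Both are palindromes, so a match counts for both strands, and each TCACGTGA match also holds a CACGTG match. In the 250 bases before the RefSeq start (GRCm38.p6, the assembly of mm10), 33 of the 40 members had a window in the table used, 39 windows in all. CACGTG was present in 4 of these 39 windows (10.3%), those of Atg3, Atg5, Atg7 and Bnip3, against 6.02% of 32851 windows of all genes. TCACGTGA was present in 1, that of Atg3, against 0.785% of all windows. The forkhead core GTAAACA, searched on both strands, was in 0 of the 39, against 3.17% of all windows. The Atg7 window lies 27999 bases inside the gene's GENCODE start and is not shown. The windows of the other 3 genes are printed 5′ to 3′ on the strand of the gene, with the motif matches in capitals, because they show the E-box in the members that hold it.
Atg3, chr16:45158579-45158828, plus strand: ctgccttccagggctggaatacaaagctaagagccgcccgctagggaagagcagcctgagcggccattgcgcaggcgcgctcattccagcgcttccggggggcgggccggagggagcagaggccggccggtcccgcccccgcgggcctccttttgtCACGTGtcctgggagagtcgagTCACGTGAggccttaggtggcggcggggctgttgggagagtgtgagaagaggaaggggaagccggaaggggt
Atg5, chr10:44268089-44268338, plus strand: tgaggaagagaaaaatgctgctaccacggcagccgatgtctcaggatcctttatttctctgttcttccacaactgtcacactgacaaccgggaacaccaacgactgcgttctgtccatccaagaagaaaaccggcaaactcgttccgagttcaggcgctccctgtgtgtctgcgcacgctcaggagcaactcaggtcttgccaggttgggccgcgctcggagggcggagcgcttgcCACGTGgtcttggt
Bnip3, chr7:138909507-138909756, minus strand: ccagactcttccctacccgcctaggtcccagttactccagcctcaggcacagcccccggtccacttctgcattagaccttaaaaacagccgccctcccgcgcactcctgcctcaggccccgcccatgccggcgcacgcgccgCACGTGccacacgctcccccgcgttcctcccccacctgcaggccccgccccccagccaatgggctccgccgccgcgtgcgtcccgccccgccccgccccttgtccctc

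In Atg3 the matches began 94 and 72 bases before the start, in Atg5 14 bases and in Bnip3 108 bases. With all 6 libraries, 0 of the 3 genes separated knockouts and controls, against 15.2% of all genes. Without control library 2, Atg5 was higher in each knockout, and Atg3 and Bnip3 overlapped (25.5% of all genes did not overlap). Atg3, the E2-like enzyme gene of LC3 conjugation, had 60.3, 50.3 and 63.9 CPM in knockout libraries and 57.4, 203 and 46.5 CPM in controls. Its groups overlap, and the liver-profile library was the highest. A match is a description of the sequence, not of binding.

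Of the 5 genes of the ULK1 complex, which starts autophagosome formation, 4 had fold changes below 0 with all 6 libraries and 2 without control library 2. Ulk1 (chromosome 5, 110784488 to 110810097, minus strand), the kinase named in the study, had 35.8, 44.5 and 36.8 CPM in knockout libraries, against 24.2, 96.1 and 50.7 CPM in controls. All knockout values lay inside the range of controls 1 and 3. The log2 fold change was −0.55 ± 0.51 (SE) and turned to 0.08 ± 0.35 without control library 2 (edgeR adjusted p 0.782 and 0.955). The related kinase gene Ulk2 stood at 89.6, 89.2 and 109 CPM in knockout libraries and 73.0, 135 and 105 CPM in controls, again with overlap. The ratio of Ulk1 to Ulk2 counts, 0.400, 0.499 and 0.339 in knockouts and 0.331, 0.710 and 0.481 in controls, did not separate the groups (exact permutation p 0.7, adjusted 0.84). Atg13, the adaptor of the complex, had 42.8, 47.1 and 44.2 CPM in knockouts and 53.2, 43.1 and 52.1 CPM in controls. Each knockout was below controls 1 and 3, and control 2 lay among the knockouts (log2 fold change −0.15 ± 0.24, −0.22 ± 0.20 without control library 2, and 0.23 with total counts alone). The scaffold gene Rb1cc1 (FIP200) was nearly level across knockouts, at 44.5 to 45.0 CPM, and spread over 36.6 to 81.3 CPM in controls. Atg101, which stabilises Atg13, ranged over 33.5 to 61.3 CPM in knockouts and 34.6 to 56.3 CPM in controls.

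Among all genes 15.2% did not overlap between the groups with 6 libraries, and 25.5% without control library 2. The class III PI3-kinase complex gave 0 of 6 such genes in either setting. Its lipid kinase gene Pik3c3 (VPS34) stood at 30.1 to 34.1 CPM in knockouts and 30.7 to 40.6 CPM in controls, and the regulatory subunit gene Pik3r4 (VPS15) at 21.9 to 25.8 and 20.4 to 29.0 CPM. Becn1, the scaffold Beclin 1, stood at 55.9 to 74.8 CPM in knockouts and 60.9 to 89.3 CPM in controls, and 43.9% of its exonic bases also belong to Cntd1, so its counts are uncertain. Ambra1, a regulator of Beclin 1, stood at 14.3 to 21.4 and 17.8 to 24.2 CPM. Uvrag, the subunit of the complex's endosomal form, had 49.6, 49.1 and 33.3 CPM in knockouts and 33.4, 28.9 and 38.6 CPM in controls. Knockouts 1 and 2 were thus high and knockout 3 lay among the controls. Of the exonic bases of Uvrag, 17.6% are shared with Gm45187 on the other strand. Atg14, which directs the complex to autophagosome formation, had 11.4, 12.0 and 8.85 CPM in knockouts and 11.1, 31.8 and 13.5 CPM in controls. That library alone stood apart, and the log2 fold change was −0.80 ± 0.47 (SE) with it and −0.18 ± 0.28 without it (edgeR adjusted p 0.636 and 0.871).

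Among genes of lipid supply and PI3P binding, 4 of 6 fold changes were below 0 in both settings. Atg2b, a lipid transfer protein gene, had 17.7, 17.4 and 14.0 CPM in knockouts and 19.7, 21.7 and 21.3 CPM in controls. The groups do not overlap, yet the difference was small, with a log2 fold change of −0.35 ± 0.26 (SE; edgeR adjusted p 0.703; −0.31 without control library 2) that turned to 0.065 with total counts alone. It shares 2.85% of its exonic bases with Gskip. Its paralog Atg2a ran the other way, at 29.5 to 40.9 CPM in knockouts and 26.4 to 36.7 CPM in controls, with overlap. Wipi1, a PI3P-binding protein gene, had 33.5, 35.5 and 33.6 CPM in knockouts and 65.4, 17.1 and 43.2 CPM in controls. Knockouts lay below controls 1 and 3 and above the liver-profile library. The log2 fold change was −0.29 ± 0.48 with all 6 libraries (edgeR adjusted p 0.895), −0.66 ± 0.26 without control library 2 (edgeR adjusted p 0.548) and 0.18 without control library 1. Wipi2, its relative in LC3 lipidation, had 60.6 to 74.9 CPM in knockouts and 72.8 to 85.1 CPM in controls. Atg9a, the lipid scramblase of autophagic vesicles, had 9.84, 12.2 and 4.73 CPM in knockouts and 13.8, 6.98 and 13.2 CPM in controls. Knockouts stood below controls 1 and 3, with the lowest value in knockout library 3 (log2 fold change −0.35 ± 0.48, −0.58 ± 0.44 without control library 2, −0.03 without knockout library 3). Of its exonic bases 32.6% are shared with other genes, mostly Gm29253 on the same strand, so its counts are uncertain. Atg9b was close to the detection limit, with 27, 14 and 4 counts in knockouts and 3, 0 and 14 counts in controls.

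The conjugation enzymes and ATG4 proteases were close to equal once the liver-profile library was left out, when 11 of 11 lay within 0.5 on the log2 scale. Atg7, the E1-like enzyme, stood at 50.8 to 58.0 CPM in knockouts and 53.7 to 63.2 CPM in controls. Atg12, the ubiquitin-like protein joined to Atg5, stood at 67.5 to 75.4 and 60.1 to 80.2 CPM, and Atg10, its E2-like enzyme, at 10.7 to 18.6 and 13.8 to 17.2 CPM. Atg5 had 39.97, 37.1 and 38.5 CPM in knockouts and 33.9, 103 and 32.4 CPM in controls. Knockouts lay above controls 1 and 3 and far below control 2, and the log2 fold change was −0.55 ± 0.51 with all 6 libraries and 0.23 ± 0.20 without control library 2 (edgeR adjusted p 0.779 and 0.756). Atg16l2, a paralog of the ATG16L1 scaffold known from immune cells, behaved alike, with 4.94, 4.95 and 5.47 CPM in knockouts and 3.00, 12.1 and 4.51 CPM in controls (−0.34 ± 0.59, and 0.46 ± 0.37 without control library 2). Atg16l1 itself, which brings the conjugation machinery to the membrane, had 31.9, 32.3 and 42.3 CPM in knockouts and 36.7, 54.6 and 38.9 CPM in controls. The ratio of Atg16l2 to Atg16l1 counts was 0.155, 0.154 and 0.130 in knockouts and 0.0820, 0.222 and 0.116 in controls (exact permutation p 0.7). Without control library 2 each knockout ratio was above both controls (exact permutation p 0.2, the smallest that 3 against 2 libraries allow).

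The ATG4 proteases trim ATG8 proteins and release them from membranes. Atg4c had 18.6, 20.3 and 14.2 CPM in knockouts and 10.7, 33.4 and 15.8 CPM in controls, with overlap in both settings (log2 fold change −0.17 ± 0.47, and 0.43 ± 0.31 without control library 2). Atg4d had 10.98, 12.0 and 15.1 CPM in knockouts and 20.2, 32.9 and 11.7 CPM in controls (−0.77 ± 0.43, and −0.32 ± 0.33 without control library 2). Control library 3 lay among the knockouts in Atg4d, which shares 19.3% of its exonic bases with Kri1 on the other strand. Atg4a ranged over 16.6 to 19.9 CPM in knockouts and 16.4 to 34.1 CPM in controls, and Atg4b over 28.4 to 36.7 and 27.1 to 41.2 CPM.

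Among the ATG8 family, which links the membrane to cargo, Gabarapl1 was the member that separated the groups. Gabarapl1 (chromosome 6, 129533160 to 129542346, plus strand) had 114, 119.9 and 158 CPM in knockouts, against 253, 321 and 172 CPM in controls. The highest knockout stood below the lowest control, by a narrow margin between knockout 3 and control 3. The log2 fold change was −0.93 ± 0.38 (SE; edgeR adjusted p 0.560) and −0.69 ± 0.30 without control library 2 (edgeR adjusted p 0.563), and it ran between −1.13 and −0.44 over 13 alternatives, with adjusted p-values between 0.212 and 1.00. An antisense gene, 1700101I11Rik, overlaps 28.3% of the exonic bases of Gabarapl1, and the strand setting of the counting is not given, and that gene had 3 to 16 counts in any library. Gabarap, the closest relative of Gabarapl1, had 303, 286 and 390.3 CPM in knockouts and 503.7, 503.6 and 244 CPM in controls, with overlap. The ratio of Gabarapl1 to Gabarap counts was 0.375, 0.419 and 0.406 in knockouts and 0.502, 0.637 and 0.704 in controls, without overlap. The log2 ratio averaged −1.32 ± 0.08 in knockouts and −0.72 ± 0.25 in controls (SD, n = 3 each), a difference of −0.61 with an exact permutation p of 0.1 (adjusted 0.3; −0.57 without control library 2).

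**Figure D3:**
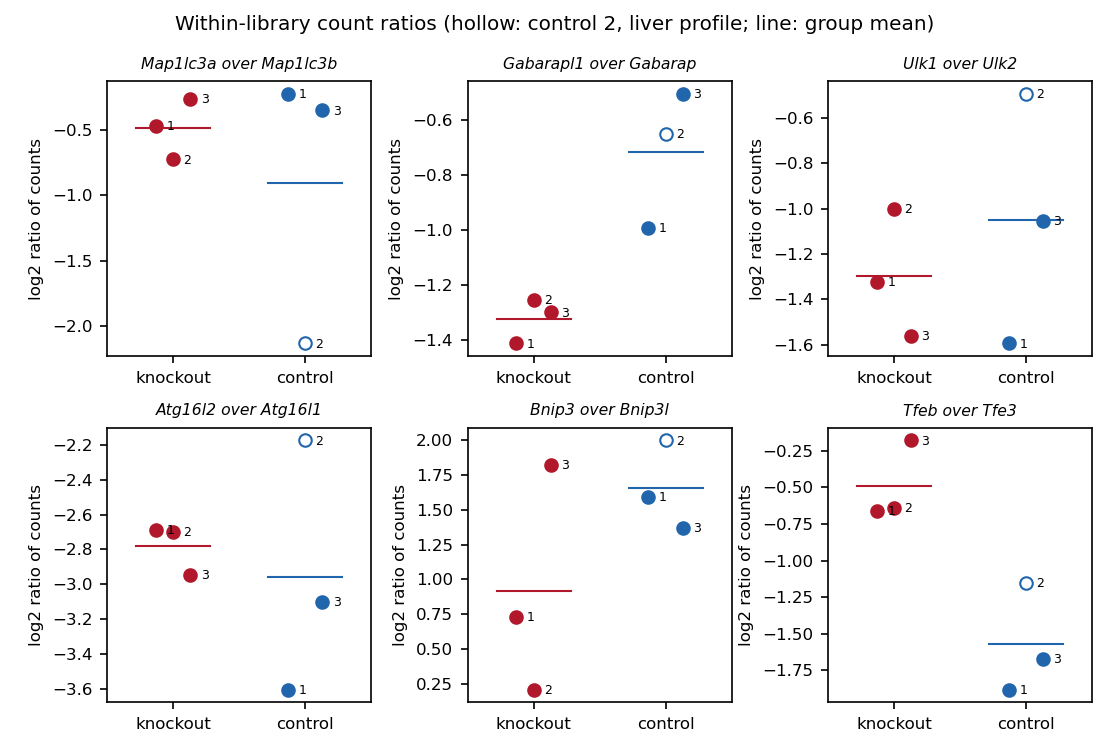
Log2 ratios of counts of related genes within each library (y axis) for knockouts (left, red) and controls (right, blue), with replicate numbers, group means as lines and control 2 hollow. Gabarapl1 over Gabarap is lower in each knockout and Tfeb over Tfe3 higher in each, while the 4 other ratios overlap with all 6 libraries.

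The LC3 genes overlapped between the groups. Map1lc3a (LC3A) had 139, 113 and 260.3 CPM in knockouts and 245, 70.9 and 145 CPM in controls, and Map1lc3b (LC3B) had 192, 187 and 313 CPM in knockouts and 286, 312 and 185 CPM in controls. Knockout library 3 and control library 1, the libraries with the highest adipocyte marker sums (40608 and 57259 CPM), held the highest Map1lc3a values. The part of adipocyte content in this order was not tested. The ratio of Map1lc3a to Map1lc3b counts was 0.722, 0.605 and 0.833 in knockouts and 0.857, 0.228 and 0.785 in controls (exact permutation p 0.9). Gabarapl2 (GATE-16) ranged over 51.2 to 86.0 CPM in knockouts and 53.8 to 130.3 CPM in controls. Per transcript length, as TPM rescaled from the deposited FPKM, Gabarap was the most abundant family member in knockouts 1 and 2, at 589 and 577 TPM, and Map1lc3a in knockout 3, at 628 TPM. Gabarap led in control 1, at 616 TPM, and in control 3, at 445 TPM. Gabarapl1 made up 13.4% to 16.7% of family TPM in knockouts and 18.4%, 27% and 22% in controls 1 to 3. Map1lc3b made up 6.59% to 7.06% in knockouts and 5.58% to 7.03% in controls.

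Of the 5 cargo receptor genes, 5 had fold changes below 0 with all 6 libraries and 3 without control library 2, the lowest in both settings being Bnip3. Bnip3, a mitophagy receptor induced by hypoxia, had 246, 181 and 648 CPM in knockouts, against 1041, 673 and 419 CPM in controls. Knockouts 1 and 2 were low and knockout 3 lay among the controls, and in the 5 libraries other than control 2 the order of Bnip3 was that of the adipocyte marker sum. The part of adipocyte content was not tested. Of the exonic bases of Bnip3, 22.3% are shared with Gm45507 on the other strand, which had 0 counts in each library. The log2 fold change was −0.99 ± 0.66 (SE; edgeR adjusted p 0.677) and −1.03 ± 0.66 without control library 2 (edgeR adjusted p 0.667), and it ran between −1.73 without knockout library 3 and −0.60 without control library 1. Bnip3l (NIX), its relative, had 148, 156 and 183 CPM in knockouts and 345, 168 and 162 CPM in controls. Here control library 1 alone was high, and the log2 fold change was −0.47 ± 0.42 with all 6 libraries and −0.021 without control 1 (−0.64 ± 0.37 without control library 2). The ratio of Bnip3 to Bnip3l counts was 1.66, 1.15 and 3.53 in knockouts and 3.02, 3.99 and 2.58 in controls (exact permutation p 0.3).

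Sqstm1 (p62), the receptor that gathers ubiquitinated protein, stood at 422, 428 and 429 CPM in knockouts, against 447, 532 and 321 CPM in controls. The knockouts were almost equal and lay inside the control range. Of the exonic bases of Sqstm1, 17.3% are shared with Mrnip on the other strand. Nbr1, a p62-like receptor, had 83.1, 87.5 and 83.2 CPM in knockouts and 88.9, 258 and 108 CPM in controls. All knockouts stood below all controls, but with the liver-profile library left out and the scaling refitted the groups overlap, and the log2 fold change was −0.20 ± 0.22, beside −0.84 ± 0.47 with all 6 (edgeR adjusted p 0.805 and 0.614). Optn (optineurin), a receptor for damaged mitochondria and bacteria, stood at 67.7 to 101 CPM in knockouts and 67.9 to 115 CPM in controls.

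**Figure D4:**
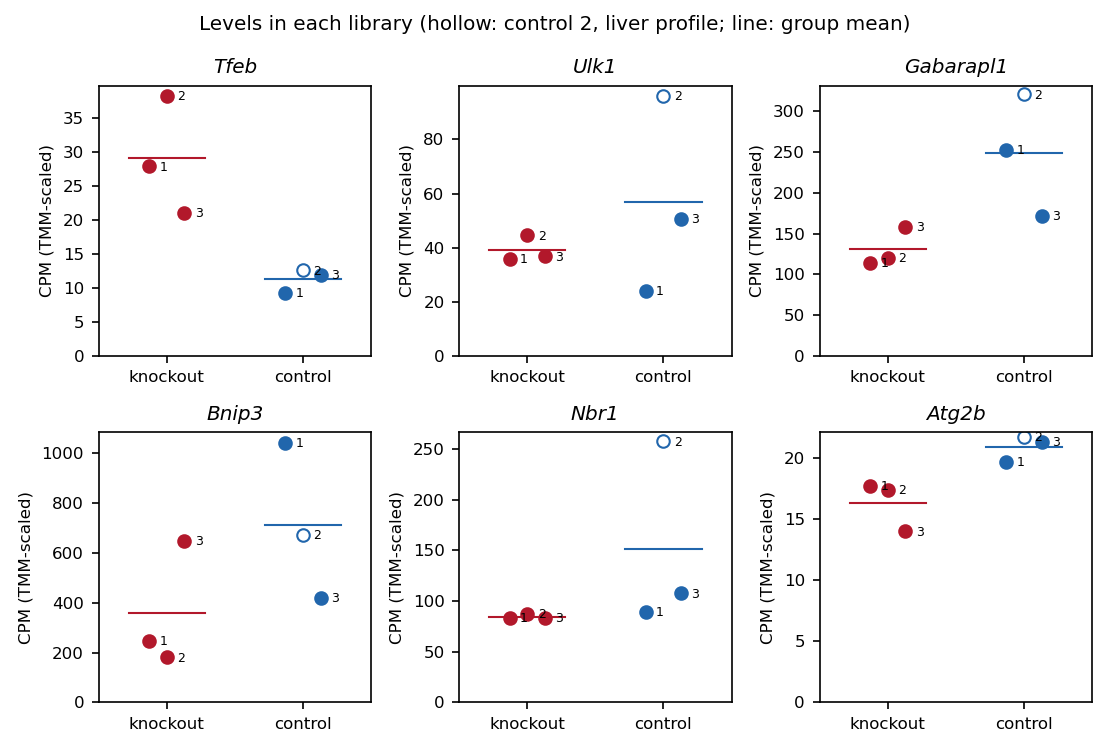
TMM-scaled CPM (y axis) of 6 genes in each knockout (left, red) and control (right, blue) library, with replicate numbers and group means as lines. The hollow point is control 2. Tfeb is higher and Gabarapl1 lower in each knockout, whereas for Ulk1 and Nbr1 the control mean is raised by control 2, at 96.1 and 258 CPM.

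The liver-profile library had its own pattern across the machinery. Leaving it out turned the sign of the fold change for 10 members, 9 to above 0 (Ulk1, Ulk2, Pik3c3, Atg3, Atg4c, Atg5, Atg16l2, Sqstm1 and Optn) and 1, Map1lc3a, to below 0. In control library 2, 17 of the 40 members were above all 5 other libraries (42.5%, against 31.2% of all genes tested) and 6 were below them all (15.0%, against 41.1%). Atg3 stood at 3.53 times the median of the 5 other libraries, Nbr1 at 2.95, Atg14 and Atg5 at 2.78, Atg4d at 2.75 and Ulk1 at 2.61 times. On the low side, Wipi1 stood at 0.482 times and Map1lc3a at 0.489 times that median. These positions and multiples depend on library scaling. The TMM factor was 0.559 in control library 2 and 0.982 to 1.25 in the 5 others, and a lower factor gives higher CPM. Before scaling, the 40 genes took 0.253% of the counts of control library 2, the smallest share of any library. Positions with total counts alone were not computed. Across the 5 other libraries, 29 of 40 members had a highest-to-lowest ratio under the median of all genes tested. Genes were not matched by expression level, so this does not set the members apart from genes of similar level. Pik3c3 was the steadiest at 1.16 times, and Bnip3 and Tfeb reached 5.77 and 4.13 times. Only Atg9b, near the detection limit, spread further, at 7.85 times.

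**Figure D5:**
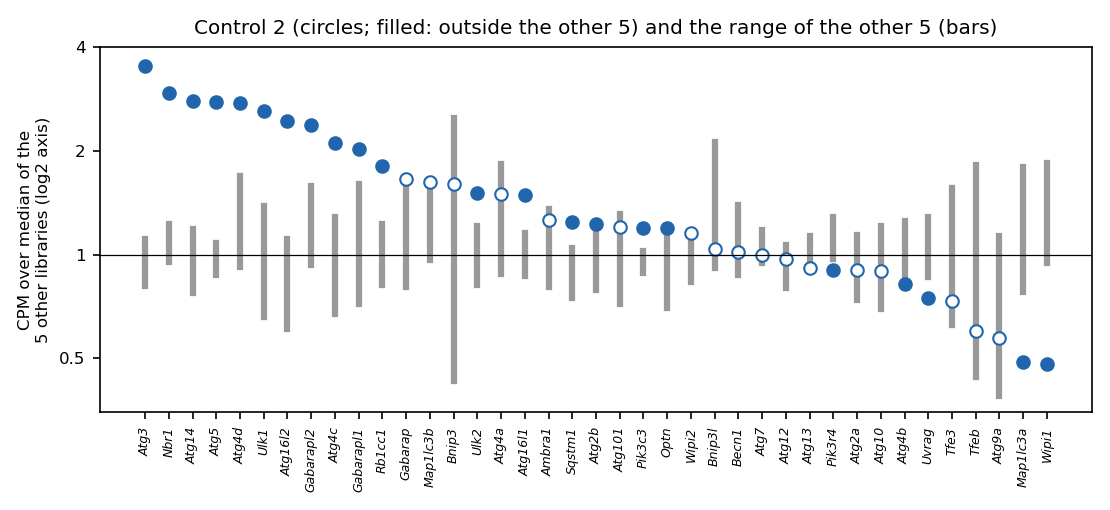
TMM-scaled CPM of 39 members in control library 2 (circles), divided by the median of the 5 other libraries (y axis, log2). Grey bars give the range of those 5. Filled circles lie outside that range. Atg3 is highest at 3.53 times and Wipi1 lowest at 0.482 times; Atg9b, at 0 counts in control library 2, is left out.

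Other genes of the pathway were described by fixed lists. Of 16 lysosome genes with reported TFEB regulation, 14 had fold changes above 0 (16 of 16 without control library 2), with medians of 0.55 and 0.63. Among all genes 7638 of 15928 were above 0, and 7884 of 16729 without control library 2. The groups did not overlap for 6 of them, all higher in knockouts (9.54% of all genes), and for 7 without control library 2 (13.6%). EdgeR called 0 of the 16. In each setting 4 were higher at an unadjusted edgeR p under 0.05, against 4.38% of all genes (5.46% without control library 2). DESeq2 called 3 higher, Hexa, Ctsd and Psap, in both settings, against 1.77% and 2.26% of genes. Hexa, a beta-hexosaminidase subunit, had 395, 447 and 221 CPM in knockouts and 99.2, 146 and 130.0 CPM in controls (log2 fold change 1.5 ± 0.42, 1.65 ± 0.41 without control library 2). Ctsd, the protease cathepsin D, had 2343, 2974 and 2108 CPM in knockouts and 1246, 549 and 932 CPM in controls (1.45 ± 0.56, 1.20 ± 0.38 without control library 2). Macrophages are rich in these lysosomal proteins, and their marker sums were 3374.5, 4250.05 and 902 CPM in knockouts and 810, 316 and 821 CPM in controls. Knockout 3 was near controls 1 and 3 in that sum and above them in Hexa and Ctsd. It was also above each control in 8 of the 12 macrophage markers. Among controls, the liver-profile library was the highest in Hexa. The part of macrophage content was not tested. Of the exonic bases of Ctsd, 34.4% are shared with Gm49369 on the same strand, so its counts are uncertain.

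Among other transcription factors, Zkscan3, a zinc finger protein reported in human cells to repress autophagy and lysosome genes, was lower in each knockout. It had 30.4, 25.0 and 25.7 CPM in knockouts, against 51.0, 63.6 and 43.6 CPM in controls, with a log2 fold change of −0.96 ± 0.27 (SE; edgeR adjusted p 0.560; −0.80 ± 0.22 without control library 2, edgeR adjusted p 0.540). DESeq2 adjusted p-values were 0.0493 and 0.0494, just inside the threshold. DESeq2 called 1.6% of genes lower with all 6 libraries and 0.724% without control library 2. Each knockout stood below each control for 5.61% of all genes, and for 11.9% without control library 2. Mitf, of the same family as Tfeb, had 22.4, 34.4 and 12.96 CPM in knockouts and 11.7, 6.44 and 14.1 CPM in controls, with knockout 3 among the controls. In the list of nutrient and energy control, 0 of 14 passed edgeR or DESeq2, and 1 stood at an unadjusted edgeR p under 0.05 (2 without control library 2). Among all genes these shares were 8.65% and 8.96%. Mtor, the kinase that restrains ULK1 and TFEB, had 43.6, 39.4 and 43.5 CPM in knockouts and 63.9, 44.1 and 64.0 CPM in controls (log2 fold change −0.44 ± 0.27, −0.59 ± 0.20 without control library 2, edgeR adjusted p 0.649 and 0.540). Prkab2, an AMPK subunit gene, had 13.1, 13.1 and 17.7 CPM in knockouts and 22.5, 1.70 and 22.6 CPM in controls.

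In the fusion list 0 of 13 passed either tool, with 0 at an unadjusted edgeR p under 0.05 and 1, Vps18, without control library 2. Among all genes the shares at that p were 8.65% and 8.96%. Vps18, a subunit of the tethering complex HOPS, had 34.3, 44.7 and 24.3 CPM in knockouts and 14.8, 24.6 and 22.5 CPM in controls. Among 11 other regulators of nucleation and elongation 0 passed either tool and 0 had an unadjusted edgeR p under 0.05. Among them Vmp1, a membrane protein needed for autophagosome formation, had 112, 97.9 and 105 CPM in knockouts and 211, 208 and 105 CPM in controls. Of 15 other receptor and mitophagy genes, edgeR called 0, with 1 at an unadjusted p under 0.05 in each setting. DESeq2 called 1 lower with all 6 libraries, Retreg1 (1.6% of genes it tested), and 0 without control library 2 (0.724%). Retreg1 (FAM134B), a receptor for the endoplasmic reticulum, had 11.01, 10.8 and 4.42 CPM in knockouts, against 44.2, 257 and 13.3 CPM in controls. The liver-profile library was highest, and the groups did not overlap without it either (log2 fold change −3.58 ± 1.13, −1.71 ± 0.62 without control library 2). Pink1, the kinase that marks damaged mitochondria, had 158, 157 and 265 CPM in knockouts and 422, 329.8 and 261 CPM in controls. Knockouts 1 and 2 were low, as for Bnip3, and knockout 3 stood just above control 3.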

How the data were processed

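Messenger RNA of 6 fat libraries was sequenced. Per the submitters' processing notes, the tools were featureCounts 1.5.0-p3, StringTie 1.3.3b, HISAT2 2.0.5 and fastp, and the build was mm10. How strand was handled, and which annotation served, is not given in the sources used here. The authors deposited raw counts per gene and FPKM values. The main test was the quasi-likelihood test of edgeR 4.0.16 in R 4.3.3, with robust dispersions, TMM scaling and genes kept by filterByExpr at a minimum count of 10. P-values were adjusted by Benjamini-Hochberg over all genes, with a threshold of 0.05. Each standard error was obtained by dividing the log2 fold change by the square root of its F statistic. TPM is the deposited FPKM rescaled to an equal sum in each library and served for levels between genes. Alternatives were DESeq2 1.42.0, its size factors, total-count scaling, no filter, each library left out, and, chosen after seeing the data, 2 scalings without control replicate 2. Count ratios used a pseudocount of 0.5 and exact two-sided permutation tests. Replicate numbers follow record order and pair nothing. Chi-square per degree of freedom between libraries of a group was 56.8 to 1112, more than counting noise alone gives. Each library was treated as its own sample, although this does not show that each came from its own animal. Symbols (54409 of 54532 identifiers matched), positions and overlaps come from GENCODE vM21. The tests were checked on simulated counts with large changes, at a low dispersion and at the common dispersion of these libraries. Recovery was required only at the low dispersion. Recovery at the common dispersion is not reported here. How many changes edgeR would find at the spread of these libraries is therefore not shown. The members and lists were chosen with earlier results of these data known. All members are named; values per library are given for Ulk1, for members without overlap between groups, for the 6 of smallest p with all 6 libraries and without control replicate 2, and for members of the ratios; Atg3, Uvrag, Sqstm1 and Psap were chosen after their values were seen. From each other list up to 2 genes are given, those of smallest edgeR p without control replicate 2. Vamp7 was not analysed here. Figures were drawn with matplotlib 3.10.9.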

Additional observations from a re-analysis of the deposited data

How the results depend on the processing

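No paired analysis was possible because the labels give the groups no shared replicate numbers. EdgeR called 0 genes and 0 members with each scaling, without the filter and with each library left out, while DESeq2 called 525 genes and 1 member (Tfeb, log2 fold change 1.35) with all 6 libraries and 470 and 1 (Tfeb, 1.46) without control replicate 2; the cause was not tested. The 4 members whose groups did not overlap numbered between 4 and 13 with 1 library left out, 13 without control replicate 3 (32.5% of members, against 36.6% of all genes), 11 without knockout replicate 3 (27.5%, against 32%), 9 without control replicate 1 (22.5%, against 28.7%) and 8 without control replicate 2 (20%, against 25.5%). Without control replicate 2 they were also 9 with DESeq2's size factors (22.5%, against 25.7%) and 8 with total counts alone (20%, against 24.8%). Tfeb, Gabarapl1, Bnip3, Bnip3l, Nbr1, Atg14, Atg4d and Atg9a kept their sign in all 13 alternatives.

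Without control replicate 2 the sign turned for 10 members, among them Ulk1, Atg4c, Atg5 and Atg16l2. With 1 library left out Ulk1 ran between −0.91 and 0.079, Atg4c between −0.47 and 0.43, Atg5 between −0.82 and 0.23, Atg16l2 between −0.69 and 0.46 and Wipi1 between −0.66 and 0.18 on the log2 scale. With total counts alone these were 0.039 for Ulk1, 0.42 for Atg4c, 0.093 for Atg5, 0.29 for Atg16l2, 0.065 for Atg2b and 0.23 for Atg13, beside a shift of all genes to 0.34. Without control replicate 2, DESeq2's size factors, DESeq2 itself and total counts gave 0.065, 0.065 and 0.19 for Ulk1, 0.42, 0.42 and 0.57 for Atg4c, 0.22, 0.22 and 0.38 for Atg5, and 0.45, 0.45 and 0.58 for Atg16l2. Differences in log2 ratio with 1 library left out lay between −0.20 and 0.76 for Map1lc3a over Map1lc3b, −0.52 and 0.029 for Ulk1 over Ulk2, −0.14 and 0.58 for Atg16l2 over Atg16l1, −1.18 and −0.38 for Bnip3 over Bnip3l, −0.74 and −0.50 for Gabarapl1 over Gabarap and 0.92 and 1.29 for Tfeb over Tfe3. With 3 against 2 libraries an exact permutation p cannot go below 0.2. Depth limits Atg9b, with at most 27 counts.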
